A study of Mus musculus with 112 samples.

Results

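The RNAs described here are 82 lncRNAs, long transcripts that code for no protein, whose names are RIKEN clone addresses that begin with a capital letter, such as A530064N14Rik. They were measured in mouse embryonic stem cells and taken by name from the 1279 lncRNAs of the antisense oligonucleotide experiment. Every symbol that starts with a capital letter and ends in Rik was kept, which gave 84. C230096K16Rik and E230020D15Rik were then left out. The rule names no measured value, but it and these omissions were set with earlier results of these data known. The first letter was A in 26, B in 12, C in 16, D in 15, E in 10, F in 2 and G in 1. The same 82 symbols were rows of the total RNA table of the degron experiment, 65 were rows of its polyA RNA table and 38 were rows of its table of newly made RNA.

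U1 snRNP is the small nuclear ribonucleoprotein that base-pairs with the 5' splice site of a nascent transcript. It starts spliceosome assembly and also keeps transcripts from being cleaved and polyadenylated too early, and U2 snRNP joins it at the branch point. Many lncRNAs of embryonic stem cells stay on chromatin after they are made, while most mRNAs move to the cytoplasm. A RIKEN name is an address of a full-length cDNA clone in a mouse library, so it says where a transcript was first cloned and nothing of its function, and few of these RNAs have a described role.

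The study asked, by its title, whether U1 snRNP regulates the retention of noncoding RNAs on chromatin, and 101 of its 112 samples entered this description. The first experiment used 46C mouse embryonic stem cells (strain 129/Ola) that received an antisense morpholino oligonucleotide (AMO) by nucleofection for 2 h: a control AMO, an AMO against U1 snRNA or an AMO against U2 snRNA at 75 µM each, or the U1 and U2 AMOs together, at 50 µM. The combined treatment therefore differs from the single ones in dose as well as in content. RNA came from whole cells and from the chromatin, nucleoplasm and cytoplasm of fractionated cells, in 47 libraries, with 3 libraries a group except the whole-cell control with 2. The second experiment used a line made from 46C cells in which SNRNP70, a protein of U1 snRNP, carries an auxin-inducible degron (AID), treated with 500 µM indole-3-acetic acid (IAA) for 4 h and compared with 0 h. Total RNA from whole cells and the same 3 fractions gave 24 libraries and polyA RNA from whole cells and chromatin gave 12, with 3 a group. The third set, 18 libraries of the same line, measured newly made RNA by SLAM-seq, which reads 4-thiouridine (4sU) as T-to-C changes: cells had 2 h of IAA and then 3 h of IAA with 4sU, or 3 h of 4sU alone. Its chromatin libraries were made from total RNA and its cytoplasm and nucleoplasm libraries from polyA RNA.

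Levels from the first 2 experiments are FPKM (fragments scaled to transcript length and library size), so their read depth is unknown. Per the file headers the FPKM of the chromatin, nucleoplasm and cytoplasm libraries were also normalised to spike-in RNA, and those of whole cells were not labelled so. SLAM-seq values are T-to-C read counts that the authors scaled to spike-in RNA, from 24927 to 227237 reads over all lncRNAs of a library. ESC lncRNAs ran on control AMO chromatin from Platr20 at 1.01 FPKM to Platr14 at 39.4 and Lncenc1 at 87.7. Platr3, Platr6, Platr7, Platr11, Platr27 and Panct2 were at 5.07 or less. Xist was at 0.13 FPKM. The differentiation-linked Halr1, Mir124a-1hg and Sox2ot were also there, at 14.4, 12.0 and 10.3 FPKM, and Bvht, Miat and Hotairm1 at 1.04, 0.77 and 0.43. On AID chromatin at 0 h Lncenc1 was at 93.9, Mir124a-1hg at 35.6, Platr4 at 35.3 and Platr14 at 30.4 FPKM. Platr10 was at 18.9 there, and Platr3, Platr6, Platr7, Platr11, Platr20, Platr27 and Panct2 ran from 1.86 to 7.56. Halr1, Sox2ot, Miat, Bvht and Hotairm1 were at 13.9, 5.27, 2.06, 1.79 and 0.35, and Xist at 0.14. The tables hold lncRNAs only, so the degraded SNRNP70 itself and protein-coding markers were not analysed here. Nothing in the labels ties the libraries of a group to separate cultures, so the p-values reflect only how far these libraries spread, and that spread may be technical. In bulk RNA, fewer cells with a transcript and less of it per cell cannot be told apart. Each fold change below is a difference of group means of log2(value + pseudocount), with the limma standard error (SE) and a p adjusted by Benjamini-Hochberg over every lncRNA tested, and a member "rose" or "fell" where the adjusted p was under 0.05. The pseudocounts, 0.2 FPKM for the AMO table, 0.1 FPKM for the AID tables and 8 scaled reads for SLAM-seq, make changes of low RNAs look smaller than they are.

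RefSeq (GRCm38.p6) gave a position for 51 of the 82 members, and the other 31 are named only. Gene lengths ran from 1212 to 258459 bases with a median of 8924. The gene overlapped a protein-coding gene in 26 members, lay within 1 kb of one in 10 and further away in 15. Where a member overlaps another gene its reads may be shared with that gene, since strand use in the authors' counting was not given in the sources used here. B230354K17Rik starts 124 bases from Cdc5l, which encodes a splicing factor, and C130036L24Rik lies 129 bases from Ncl, which encodes nucleolin. A930037H05Rik overlaps Rnf213, a ubiquitin ligase gene, on the other strand, and C330024D21Rik lies 35770 bases from Bend4. In that build B230354K17Rik spans chr17:45433831-45442544, C330024D21Rik chr5:67463898-67477899, A930037H05Rik chr11:119461200-119491235 and E330020D12Rik chr1:153404186-153414233.

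3 members hold microRNA genes within their bounds, and the mature sequences (RefSeq, GRCm38.p6, 5' to 3', seed bases 2 to 8 in capitals) are shown because they are the part of these hosts with a known product. A330023F24Rik on chromosome 1 holds miR-29b-3p and miR-29c-3p, which share the seed AGCACCA and repress collagen and other matrix genes. C430049B03Rik on chromosome X holds miR-322-5p, miR-503-5p and miR-351-5p. The seeds of the first 2 differ in their last base, and these microRNAs repress cell-cycle genes. E130102H24Rik on chromosome 4 holds miR-101a-3p, known for repressing the Polycomb gene Ezh2. The tables measure the host RNA and not the mature microRNA.
miR-29b-3p: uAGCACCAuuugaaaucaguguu
miR-29c-3p: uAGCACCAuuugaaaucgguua
miR-322-5p: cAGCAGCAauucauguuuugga
miR-503-5p: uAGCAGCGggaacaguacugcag
miR-351-5p: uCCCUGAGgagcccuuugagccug
miR-101a-3p: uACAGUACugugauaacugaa

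Start-site windows were read for 40 members with 52 starts, each 300 bases from 250 before to 50 after the start. Those of 2 members are printed, with CG dinucleotides in capitals: B230354K17Rik (chr17:45433581-45433880, plus strand) and C330024D21Rik (chr5:67463648-67463947, plus strand). Both are among the 7 members that fell on chromatin in all 4 comparisons with the U1 AMO or IAA given below. That share is near the background (23.3% against 20.5% of all lncRNAs). On centred libraries B230354K17Rik kept 2 of these calls and C330024D21Rik 3. B230354K17Rik held 27 CG dinucleotides and C330024D21Rik 7, at 61.3% and 51% G and C. The median was 12 (range 0 to 47) over the members' windows and 7 (range 0 to 67) over all 32817 windows of the RefSeq table. On either strand, GGTAAG, the core letters that pair with U1, was in 6 of the 52 member windows (11.5%) and 9.68% of all windows. The polyadenylation signal AATAAA was in 6 (11.5%) against 19.6%, and TATAAA in 4 (7.69%) against 13.6%.
B230354K17Rik: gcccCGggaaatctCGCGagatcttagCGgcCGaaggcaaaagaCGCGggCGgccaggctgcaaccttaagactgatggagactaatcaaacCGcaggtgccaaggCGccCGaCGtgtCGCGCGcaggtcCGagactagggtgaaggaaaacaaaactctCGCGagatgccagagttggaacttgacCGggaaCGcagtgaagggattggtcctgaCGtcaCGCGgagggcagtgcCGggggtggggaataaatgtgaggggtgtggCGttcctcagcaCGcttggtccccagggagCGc
C330024D21Rik: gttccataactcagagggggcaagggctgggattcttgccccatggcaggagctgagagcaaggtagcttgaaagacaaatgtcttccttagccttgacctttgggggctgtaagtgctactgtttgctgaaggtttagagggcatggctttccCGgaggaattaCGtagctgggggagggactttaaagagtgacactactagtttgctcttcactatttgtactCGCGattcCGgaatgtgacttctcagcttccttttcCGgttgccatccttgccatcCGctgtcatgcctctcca

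On chromatin of control AMO cells the members were low, from 0.02 to 14.4 FPKM with a median of 1.35 over the means of 3 libraries, and 27 were under 1 FPKM. The 6 members at 10 FPKM or more were A230004M16Rik (14.4), B230354K17Rik (14.2), E330020D12Rik (11.7), A530040E14Rik (11.3), D530018E20Rik (10.5) and A930004J17Rik (10.4). The neighbours in this order differ by less than their libraries spread: A230004M16Rik ran from 11.8 to 17.3 FPKM and B230354K17Rik from 13.6 to 15.0.

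In cells with control AMO, 45 of 82 members were higher on chromatin than in the mean of cytoplasm and nucleoplasm and 8 were lower, where 60.3% and 10.6% of all lncRNAs tested were. In AID cells at 0 h, 54 were higher and 9 lower, beside 69.1% and 11.3% of all. The members' median was 0.71 (log2) against 1.11 for all lncRNAs in AMO cells, and 1.22 against 1.87 in AID cells. After each library was centred on its median, which sets the median lncRNA near 0, 15 were higher and 28 lower in AMO cells. In AID cells 19 were then higher and 43 lower, so the split depends on comparing FPKM across fractions. Counts on centred libraries, here and below, are of members only. They have no share of all lncRNAs beside them and are not read as particular to the members.

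4 members leaned furthest to chromatin in both lines. D530018E20Rik (ENSMUSG00000107610.1) was at 11.1, 9.57 and 10.7 FPKM on control AMO chromatin, at 0.47, 0.82 and 0.39 in the cytoplasm and at 0.82, 0.39 and 0.6 in the nucleoplasm. Its chromatin excess was 3.80 (log2, SE 0.25, adjusted p = 1.13e-06) there and 4.44 in AID cells. A530064N14Rik followed with 2.88 and 4.65, F830112A20Rik with 2.67 and 4.64 and C030017G13Rik with 2.49 and 4.06. Furthest to the soluble side was A930005H10Rik, at 2.07, 0.78 and 0.53 FPKM on control AMO chromatin against 18.7, 16.3 and 12.8 in the cytoplasm, a difference of -2.09 (adjusted p = 0.000164), and of -3.15 in AID cells. B230311B06Rik was at -2.08 in AMO cells but its control cytoplasm libraries spread from 0.38 to 8.05 FPKM. C130013H08Rik was at -1.01 and -1.76 in the respective lines.

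**Figure D1:**
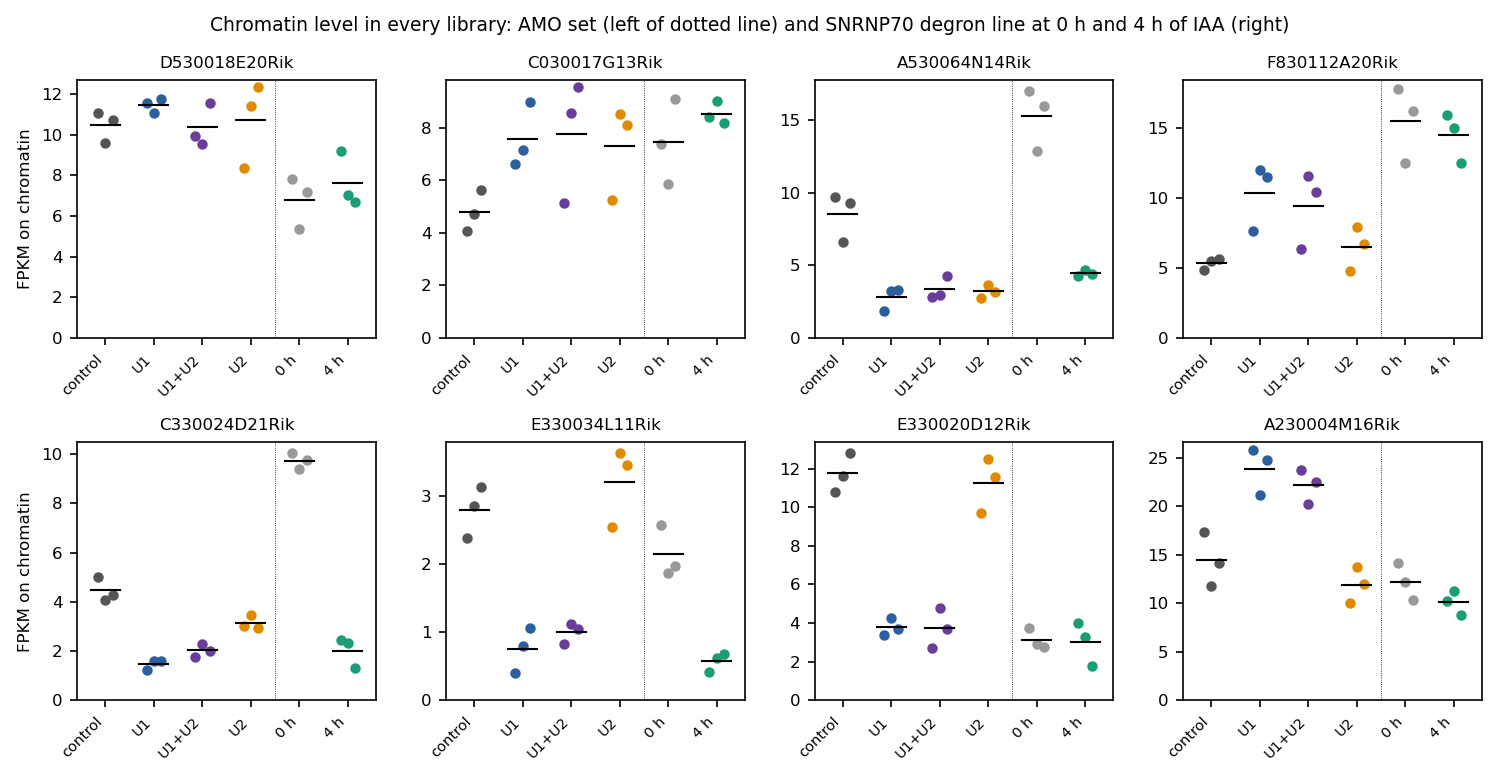
Level on chromatin (vertical axis, FPKM) of 8 members in every AMO library (control, U1, U1+U2, U2) and in AID libraries at 0 h and 4 h of IAA; each point is 1 library and each line a group mean. E330020D12Rik is at 10.8 FPKM or more with the control AMO and at 4.27 or less with the U1 AMO, and its 0 h and 4 h libraries overlap.

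The U1 AMO lowered 44 of 80 tested members on chromatin and raised 4, beside 52.8% of all lncRNAs that fell and 5.27% that rose, so the members' share is near the background. The members' median change was -0.84 and that of all lncRNAs -0.81. A330094K24Rik and G530011O06Rik were too low to be tested. The Rik lncRNAs from testis clones had 26 falls among 66 tested with a median of -0.64, and those from other numbered clones 67 among 119 with a median of -0.90; these differences between lists were not tested. By first letter the falls were 11 of 25 for A, 7 of 12 for B, 11 of 16 for C, 9 of 15 for D, 6 of 10 for E and 0 of 2 for F. With the replicate number as a block, 47 members fell and 4 rose, again without a share of all lncRNAs. Libraries centred on their medians gave 15 rises and 7 falls, so the count of falls rests on the spike-in scale of the deposited FPKM, since centring by construction removes any overall difference between libraries. Values of single members below are on the deposited scale. The centred value stands beside a chromatin change where centring ended a call, made one or turned a called change.

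Among the falls that kept their call after centring were E330034L11Rik, E330020D12Rik, A530064N14Rik and C330024D21Rik. E330020D12Rik (ENSMUSG00000073538.10) was at 10.8, 11.6 and 12.8 FPKM with the control AMO and at 3.36, 4.27 and 3.69 with the U1 AMO. Every U1 library was under every control library, and the change was -1.59 (SE 0.20, adjusted p = 9.55e-05). E330034L11Rik (ENSMUSG00000106383.1) went from 2.39, 2.85 and 3.13 FPKM to 0.4, 0.8 and 1.06, a change of -1.71 (SE 0.27, adjusted p = 0.000301).

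A530064N14Rik (ENSMUSG00000104273.1), one of the 4 members furthest to chromatin, went from 9.73, 6.58 and 9.27 FPKM to 1.87, 3.22 and 3.32. The groups did not overlap, and the change was -1.56 (SE 0.25, adjusted p = 0.000336). C330024D21Rik (ENSMUSG00000107385.3), whose nearest protein-coding gene is Bend4, went from 5.02, 4.09 and 4.29 FPKM to 1.21, 1.6 and 1.58, a change of -1.49 (SE 0.18, adjusted p = 7.73e-05). B230354K17Rik, the neighbour of Cdc5l, went from 13.6, 13.95 and 15.0 FPKM to 5.89, 6.65 and 6.4, a change of -1.15 (SE 0.14, adjusted p = 6.25e-05), which became -0.31 and lost its call after centring. E130307A14Rik, within the Traf3ip2 and Rev3l region, changed by -1.45 (adjusted p = 0.00137), and by -0.62 without a call after centring.

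4 members rose on chromatin with the U1 AMO. A230004M16Rik (ENSMUSG00000087306.7) went from 17.3, 11.8 and 14.2 FPKM to 25.8, 21.2 and 24.7, all above the controls, a change of 0.73 (SE 0.18, adjusted p = 0.00442). F830112A20Rik (ENSMUSG00000103159.1) went from 4.83, 5.46 and 5.65 to 7.62, 12.0 and 11.5 (0.91, SE 0.26, adjusted p = 0.00924). C030017G13Rik (ENSMUSG00000107050.1) went from 4.06, 4.72 and 5.64 to 6.61, 7.16 and 8.98 (0.64, SE 0.25, adjusted p = 0.0465); leaving out any 1 of 5 libraries ended this call, with an adjusted p of 0.149 and a change of 0.51 without the third U1 library. The fourth, D830050J10Rik, was under 2 FPKM in every library. D530018E20Rik, at 11.5, 11.1 and 11.7 FPKM with the U1 AMO, did not change detectably (0.13, interval -0.23 to 0.49), and A930004J17Rik gave 0.11 (interval -0.25 to 0.47). On centred libraries both were called higher, at 0.97 and 0.95.

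**Figure D2:**
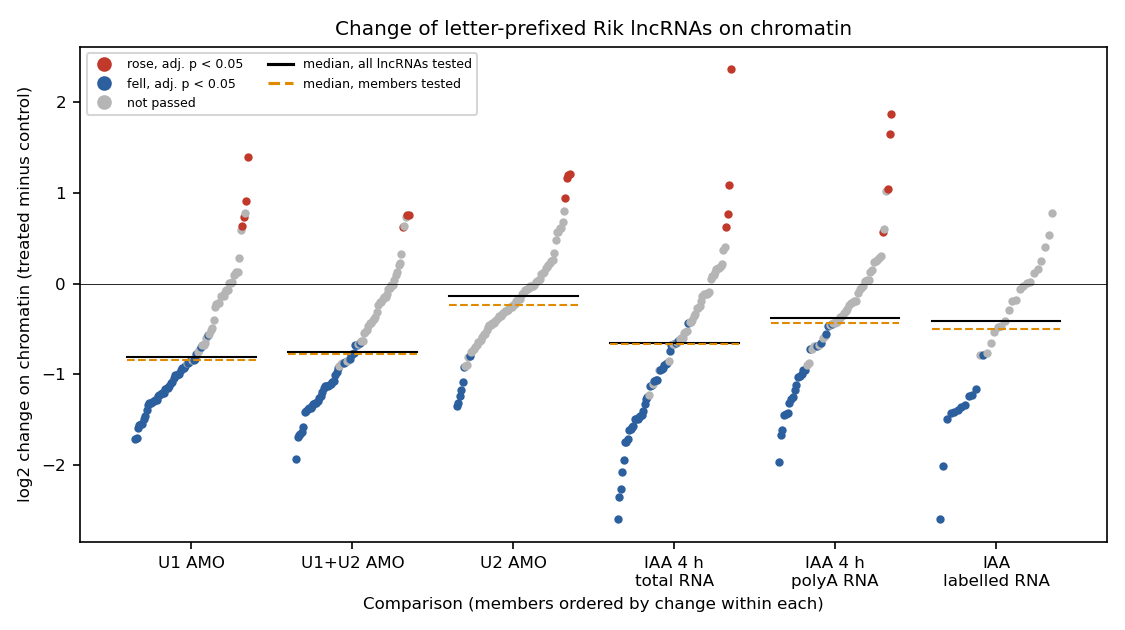
Log2 change on chromatin (vertical axis) of each tested member, ordered by change within each of 6 comparisons; red and blue points rose or fell at an adjusted p under 0.05, the black line is the median of all lncRNAs tested and the dashed line that of the members. The 2 medians lie close together, at -0.84 and -0.81 with the U1 AMO.

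In the soluble fractions the U1 AMO changed fewer members. In the cytoplasm 3 rose and 3 fell of 78 (all lncRNAs: 7.62% changed), in the nucleoplasm 5 rose and 4 fell of 56 (17.1%), and in whole cells 5 rose and 7 fell of 73 (14.5%). D530018E20Rik was at 4.52, 3.11 and 2.68 FPKM in the U1 cytoplasm against 0.47, 0.82 and 0.39, a change of 2.27 (SE 0.38, adjusted p = 0.00429), and rose by 1.56 in the nucleoplasm (adjusted p = 0.00153). A230004M16Rik rose by 1.12 in the cytoplasm (21.4, 24.6 and 23.4 to 58.5, 45.3 and 48.4 FPKM) and by 1.15 in the nucleoplasm. F830112A20Rik and C030017G13Rik rose by 1.83 and 1.81 in the nucleoplasm and by 1.56 and 1.53 in whole cells. A930015D03Rik, which overlaps H2-T genes, fell in the cytoplasm from 12.4, 11.9 and 11.6 FPKM to 3.67, 2.94 and 2.92 (-1.86, adjusted p = 0.00356). A630052C17Rik rose there from 2.84, 1.97 and 3.44 FPKM to 9.46, 6.94 and 10.1 (1.63). E330034L11Rik and E330020D12Rik fell in whole cells by -1.19 and -1.03; the second kept no call with the replicate block (adjusted p = 0.0568) and none on centred libraries (adjusted p = 0.0631). Without control library 1 neither whole-cell call held, with adjusted p of 0.0674 for E330034L11Rik and 0.18 for E330020D12Rik, but the control arm is then 1 library that is assumed to vary like the other groups.

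The change on chromatin can be set against that of the same RNA in the other fractions, as the chromatin change minus the mean of the cytoplasm and nucleoplasm changes. Under the U1 AMO this shift was negative for 14 of 82 members and positive for 0, where 19.7% of all lncRNAs were negative. A530064N14Rik had -1.43, E130307A14Rik -1.37 and C330024D21Rik -1.30. The call of E130307A14Rik was lost without any 1 of 4 libraries, at -1.26 (adjusted p = 0.0723) without the third control chromatin library. D530018E20Rik, whose chromatin libraries overlapped, had -1.79 (adjusted p = 0.00334), with a chromatin change of 0.13 beside its soluble rises. After centring 1 member was positive and 0 negative, so these shifts rest on the deposited scale of the fractions compared.

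The combined U1 and U2 AMO, at its lower dose, gave 39 falls and 3 rises among 79 members on chromatin, beside 50.1% and 3.9% of all lncRNAs. On centred libraries 3 fell and 12 rose. Its comparisons use the same control libraries as those of the U1 AMO, so their values are set side by side only. E330020D12Rik was at 2.72, 4.8 and 3.68 FPKM (-1.63, adjusted p = 0.000107), A530064N14Rik changed by -1.30, C130036L24Rik by -1.37 and A230004M16Rik by 0.62. Without control library 2 the A230004M16Rik value was 0.49, with an adjusted p of 0.0504. D930016D06Rik went to 2.55, 1.9 and 2.58 FPKM from 6.43, 4.99 and 6.18 (-1.26). After centring the calls of A530064N14Rik (-0.50), C130036L24Rik (-0.57) and D930016D06Rik (-0.46) were lost, while D530018E20Rik (-0.02 as deposited) and A930004J17Rik were called higher, at 0.78 and 0.76. In the soluble fractions 3 rose and 5 fell of 78 in the cytoplasm (8.63% of all lncRNAs changed), 5 rose and 8 fell of 55 in the nucleoplasm (19.1%) and 5 rose and 6 fell of 75 in whole cells (12.4%). D530018E20Rik changed by 2.29 in that cytoplasm.

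With the U2 AMO 4 of 81 members rose on chromatin and 7 fell, beside 2.91% and 5.34% of all lncRNAs, with a median of -0.23 against -0.14. A530064N14Rik fell with this AMO too, to 2.74, 3.68 and 3.19 FPKM, a change of -1.35 (adjusted p = 0.00645). E330020D12Rik stayed at 9.69, 12.5 and 11.6 FPKM (-0.07, interval -0.50 to 0.37). E330034L11Rik was at 2.55, 3.63 and 3.45 FPKM, within 0.18 of its controls.

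3 members rose on chromatin with the U2 AMO beside B230311B06Rik, which stayed near or under 1 FPKM. A430057M04Rik, listed by RefSeq as protein coding, went from 2.57, 2.58 and 2.57 FPKM to 5.02, 8.22 and 5.71 (1.20, SE 0.23, adjusted p = 0.00721). C130083A15Rik went from 3.51, 2.67 and 3.36 to 5.81, 8.78 and 7.76 (1.17, adjusted p = 0.0488), and C730045M19Rik from 2.56, 3.85 and 3.09 to 4.65, 8.08 and 6.33 (0.94, adjusted p = 0.0451). Leaving out any 1 of 6 libraries ended the call of C130083A15Rik and 1 of 5 that of C730045M19Rik. C430049B03Rik, the host of the miR-322 group, fell from 1.41, 1.38 and 1.8 FPKM to 0.56, 0.5 and 0.63 (-1.18, adjusted p = 0.0136), and to 0.97, 0.58 and 0.71 with the U1 AMO (-0.87, adjusted p = 0.0107, and -0.03 without a call after centring). Its U2 value without control library 3 was -1.07, with an adjusted p of 0.0675.

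In the cytoplasm of U2 AMO cells, limma called 0 of 79 members, beside 1.85% of all lncRNAs. Its unadjusted p was under 0.05 for 10 of the 79 members and for 173 of all 1188 lncRNAs tested. In the nucleoplasm 12 of 66 rose, beside 22.4% of all, and 0 fell. These rises include E430021H15Rik, A830008E24Rik and A530041M06Rik, with control means of 0.067, 0.16 and 0.167 FPKM. Those means are under the 0.2 FPKM cut-off, so these members were tested only through their U2 libraries. The filter thus favours rises over falls among low RNAs, for members and for all lncRNAs. On centred libraries 4 rose and 5 fell there. D530018E20Rik (2.89, 1.5 and 1.95 FPKM) and C030017G13Rik (1.49, 1.24 and 1.43 FPKM) rose by 1.52 and 1.47, as they did with the U1 AMO. In whole cells 3 of 77 rose and 0 fell, beside 3.71% of all changed.

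A direct test of the U1 AMO against the U2 AMO on chromatin called 30 of 79 members lower and 7 higher with the U1 AMO, beside 41.8% and 5.59% of all lncRNAs, and 9 lower and 15 higher on centred libraries. C130083A15Rik, at 1.04, 1.7 and 2.11 FPKM with the U1 AMO, had the most negative difference of the members named by rule (-2.10, adjusted p = 0.000447). E330034L11Rik followed (-1.89) and then E330020D12Rik (-1.53). A230004M16Rik was higher with the U1 AMO (1.00, adjusted p = 0.00101). For A530064N14Rik, low with either AMO, the difference was -0.21 (adjusted p = 0.508).

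**Figure D3:**
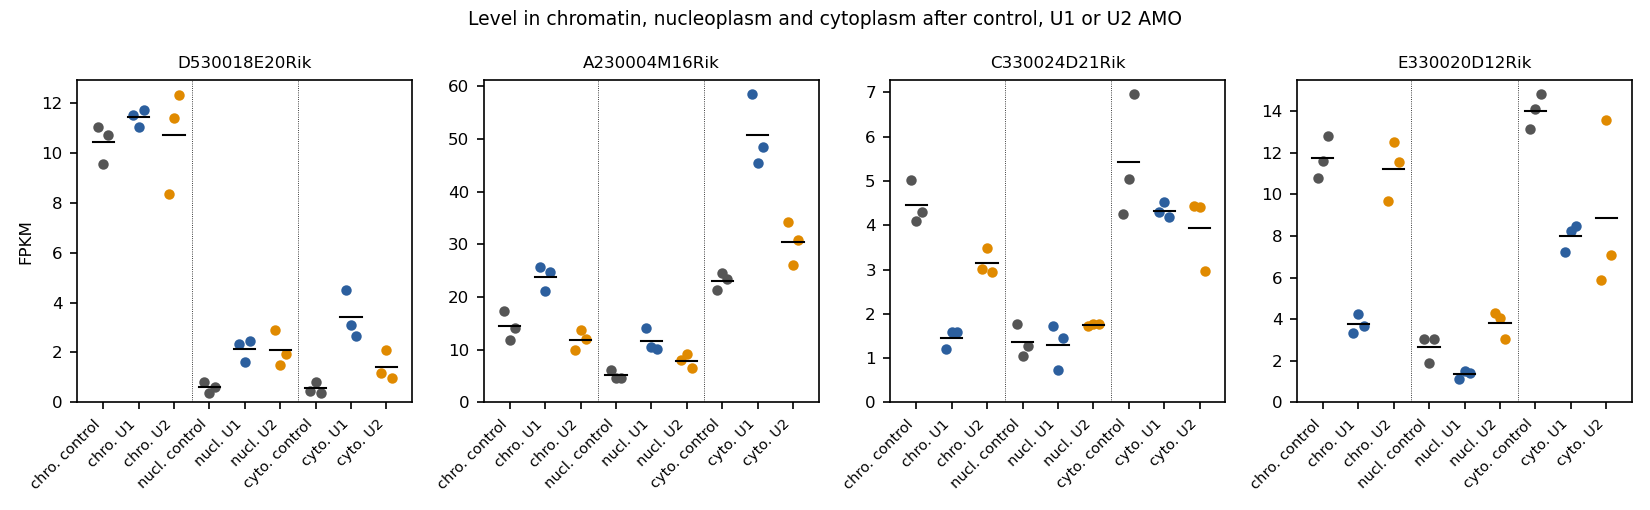
Level (vertical axis, FPKM) of 4 members in chromatin, nucleoplasm and cytoplasm libraries after control, U1 or U2 AMO; each point is 1 library and each line a group mean. D530018E20Rik stays near its control level on chromatin while its U1 cytoplasm libraries, at 2.68 FPKM or more, lie above all control ones.

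After 4 h of IAA, chromatin total RNA of AID cells had 38 falls and 4 rises among 81 members, beside 46.7% and 3.17% of all lncRNAs, and a median of -0.66 against -0.65. B230311B06Rik was too low to be tested. On centred libraries 15 fell and 13 rose. Of the 79 members tested in both systems, 32 fell with the U1 AMO and with IAA, 72.7% of the 44 that fell with the AMO and 84.2% of the 38 that fell with IAA. Over all lncRNAs, 413 of 1226 fell in both, 63.5% and 71.7% of the falls of each. Of the 4 members that rose in each system, 0 rose in both. Over all lncRNAs 12 of 1226 did, 18.75% of the U1 AMO rises and 30% of the IAA rises. The tables of the 2 experiments were normalised separately, so differences between them were not tested.

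A930037H05Rik had the most negative change of the members named by rule: it went from 10.3, 7.27 and 8.15 FPKM at 0 h to 1.61, 1.43 and 1.74 (-2.35, SE 0.20, adjusted p = 4.19e-05). After the U1 AMO its libraries overlapped (2.7, 1.06 and 2.54 to 0.6, 1.24 and 0.8 FPKM, -1.04, and -0.20 without a call after centring). C330024D21Rik went from 10.0, 9.4 and 9.74 FPKM to 2.44, 2.31 and 1.3 (-2.26, adjusted p = 7.73e-05).

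A530064N14Rik went from 17, 12.8 and 16 FPKM to 4.24, 4.67 and 4.42 (-1.75, adjusted p = 5.84e-05). E330034L11Rik went from 2.58, 1.87 and 1.98 to 0.42, 0.62 and 0.68 (-1.74). These 4 kept their calls on centred libraries, whereas B230354K17Rik (20.5, 17.3 and 19.6 to 11.1, 9.92 and 8.92 FPKM, -0.93, adjusted p = 0.00109) did not, at -0.19.

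Members that changed on chromatin with the U1 AMO, but not detectably with IAA in chromatin total RNA, included E330020D12Rik. Its libraries were at 3.73, 2.91 and 2.77 FPKM at 0 h and 4.0, 3.26 and 1.79 at 4 h (-0.12, interval -0.74 to 0.52, adjusted p = 0.773). E330020D12Rik was at 0.63 without a call on centred libraries. A230004M16Rik went from 14.2, 12.2 and 10.3 FPKM to 10.3, 11.3 and 8.76 (-0.27, interval -0.67 to 0.13) and was called higher, at 0.47, on centred libraries. F830112A20Rik changed by -0.09 (interval -0.49 to 0.32), and was called higher on centred libraries, at 0.65. E330020D12Rik and A230004M16Rik did rise with IAA in whole-cell polyA RNA, as given below. Whether the 2 experiments differ for these members was not tested.

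4 members rose on chromatin with IAA. A430057M04Rik went from 0.49, 0.57 and 0.4 FPKM to 3.01, 3.44 and 2.33 (2.36, SE 0.26, adjusted p = 9.42e-05) and was also high with the U2 AMO, but not detectably with the U1 AMO (-0.07, interval -0.56 to 0.42), where centring made it a rise of 0.77. C730045M19Rik went from 3.19, 4.87 and 3.8 to 7.97, 6.35 and 5.92 (0.77, adjusted p = 0.012). The other two were B230377A18Rik and C430039J01Rik.

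In total RNA, IAA changed few members outside chromatin. In the cytoplasm 1 of 72 rose and 0 fell, beside 3.67% of all lncRNAs changed. In the nucleoplasm 2 rose and 7 fell of 81, beside 16% of all, and in whole cells 2 rose and 5 fell of 82, beside 11.8%. D530018E20Rik rose in the nucleoplasm from 0.25, 0.2 and 0.2 FPKM to 0.8, 1.15 and 1.76 (2.02, adjusted p = 0.00687), with no detectable change on chromatin (0.17, interval -0.27 to 0.63), where it was called higher after centring, at 0.92. C330024D21Rik fell there from 4.03, 2.74 and 3.23 to 1.26, 1.43 and 1.2 (-1.28). In whole cells A530064N14Rik changed by -1.23 (adjusted p = 0.0397) and C330024D21Rik by -0.86 (adjusted p = 0.0326). Leaving out any 1 of 5 libraries ended the first of these calls and any 1 of 6 the second, with adjusted p of up to 0.113 and 0.097 without the first 0 h library. The AID shift was negative for 16 of 82 members (19.2% of all lncRNAs) and positive for A430057M04Rik (1.63, adjusted p = 0.0204). That positive call was lost without either of 2 chromatin libraries, at 1.52 (adjusted p = 0.0586) without the third 0 h one and 1.51 (adjusted p = 0.0553) without the second 4 h one. On centred libraries 1 member was negative and A430057M04Rik was positive, at 2.24.

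In polyA RNA of the same treatment, 22 of 65 members fell on chromatin and 4 rose, beside 36.8% and 8.96% of all lncRNAs, with a median of -0.43 against -0.37. On centred libraries 10 fell and 11 rose. C330024D21Rik went from 4.64, 4.69 and 4.75 FPKM to 1.54, 1.9 and 1.63 (-1.43), and A930037H05Rik from 3.67, 3.53 and 3.47 to 1.15, 0.98 and 1.03 (-1.67, adjusted p = 7e-05). D430013B06Rik rose from 6.23, 6.14 and 6.31 to 13.1, 13.2 and 12.4 (1.04, SE 0.08, adjusted p = 4.93e-05), with no detectable change in chromatin total RNA (0.19, interval -0.20 to 0.60), where centring gave a called rise of 0.94. After the U1 AMO it fell, from 6.43, 5.17 and 6.98 FPKM to 2.11, 3.09 and 1.98 (-1.32, and -0.48 without a call after centring).

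In whole-cell polyA RNA 10 of 63 members rose and 5 fell, beside 13% and 7.05% of all, with a median of 0.16 against 0.10. E330020D12Rik rose there from 3.8, 3.49 and 3.01 FPKM to 6.35, 6.59 and 6.62 (0.91, adjusted p = 0.0022), and A230004M16Rik from 3.21, 3.5 and 3.18 to 4.52, 6.3 and 5.22 (0.67). The second call was lost without either of 2 libraries, at 0.55 (adjusted p = 0.0652) without the second 4 h library. C430049B03Rik, the miR-322 host, rose from 0.58, 0.45 and 0.73 to 2.12, 1.94 and 1.3 (1.45, adjusted p = 0.00623), while its chromatin total RNA at 0.41 did not pass the test.

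In newly made RNA, 12 of 32 members fell on chromatin and 0 rose, beside 33.6% and 5.67% of all lncRNAs, with medians of -0.50 and -0.41. On centred libraries 7 fell and 5 rose. B230354K17Rik went from 1266, 1470 and 1304 scaled reads to 436, 516 and 473 (-1.49, SE 0.14, adjusted p = 3.9e-06). A930037H05Rik went from 85.6, 96.2 and 64.6 to 9.5, 5.05 and 6.25 (-2.59). E330034L11Rik went from 167, 178 and 154 to 62.2, 70.7 and 51.5 (-1.33). C330024D21Rik went from 35.2, 8.36 and 17.6 to 0.86, 0.0 and 5.46 (-1.42, adjusted p = 0.00921), at few reads, and its call was lost on centred libraries, at -0.85.

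In the other SLAM-seq fractions, 1 of 32 members rose and 1 fell in the cytoplasm (10.6% of all changed). In the nucleoplasm 7 of 38 rose and 1 fell, beside 17.8% and 9.59%. D530018E20Rik was at 41.9, 26.2 and 10.6 scaled reads without IAA and 118, 118 and 78.0 with it (1.81, adjusted p = 0.000494). E330020D12Rik rose from 131, 161 and 112 to 259, 297 and 393 (1.18, adjusted p = 0.000682), and E130102H24Rik, the miR-101a host, from 31.4, 48.3 and 0.0 to 83.1, 96.9 and 156 (2.15, adjusted p = 4.31e-05). On SLAM-seq chromatin E130102H24Rik was at 0.78 (interval 0.07 to 1.49, adjusted p = 0.0742), which did not pass the test, and at 1.35 with a call after centring. With the U1 AMO, in the other experiment, it showed no detectable change on chromatin (-0.07, interval -0.61 to 0.48), and centring gave a called rise of 0.77.

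7 of the 30 members tested in all 4 chromatin comparisons with the U1 AMO or IAA (23.3%) fell in each. Of all lncRNAs tested in all 4, 67 of 327 did (20.5%), so the share is near the background. The 7 were A630072M18Rik, A930037H05Rik, B230354K17Rik, C130036L24Rik, C330024D21Rik, D930016D06Rik and E330034L11Rik. On centred libraries only E330034L11Rik fell in all 4, with changes of -0.87 with the U1 AMO, -1.001 with IAA in total RNA, -0.68 in polyA RNA and -0.77 in SLAM-seq. The other 6 lost at least 1 call. With the U1 AMO A630072M18Rik turned to 0.27, and A930037H05Rik (-0.20), B230354K17Rik (-0.31), C130036L24Rik (-0.39) and D930016D06Rik (-0.45) did not pass. With IAA B230354K17Rik (-0.19) and C130036L24Rik (-0.32) did not pass and D930016D06Rik turned to 0.068, and in SLAM-seq C130036L24Rik (-0.80) and C330024D21Rik (-0.85) did not pass. 3 of the 7 also depend on single libraries on the deposited scale. Leaving out any 1 of 4 libraries ended the U1 AMO call of A630072M18Rik (adjusted p up to 0.134), that of A930037H05Rik (up to 0.128), or the IAA call of D930016D06Rik (up to 0.188), each highest without the first control or 0 h library. A630072M18Rik also fell with the U2 AMO, a call lost without any 1 of 3 libraries (adjusted p up to 0.104). Its centred value with that AMO is not given here. The other three comparisons beside the AMO use the AID line, and the polyA and total RNA libraries may come from the same treated cells, which the labels do not say. D930016D06Rik, at 13.96, 14.57 and 13.66 FPKM in polyA chromatin RNA at 0 h, went to 8.21, 6.9 and 6.62.

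The microRNA host A330023F24Rik fell from 0.74, 0.61 and 1.42 FPKM on control chromatin to 0.13, 0.14 and 0.24 with the U1 AMO (-1.55, adjusted p = 0.00141, and -0.71 without a call after centring), and from 1.83, 1.88 and 1.79 to 1.12, 1.16 and 1.17 with IAA (-0.63, adjusted p = 0.032). The second call was lost without any 1 of 6 libraries, and the direction was the opposite on centred AID libraries, at 0.11. B830012L14Rik, which lies in the imprinted Dlk1-Dio3 domain, fell from 1.2, 0.97 and 1.21 FPKM to 0.32, 0.33 and 0.36 with the U1 AMO (-1.30) and from 1.83, 1.86 and 2.41 to 0.9, 0.66 and 0.84 with IAA (-1.24). On centred libraries neither call held. B830012L14Rik also fell on chromatin with the U2 AMO, a call lost without any 1 of 5 libraries. In SLAM-seq chromatin it fell from 147, 155 and 169 scaled reads to 42.3, 55.6 and 63.2 (-1.43, adjusted p = 0.000205). Centred values for these last falls are not given here.

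The falls are given by position, with no test between positions. With the U1 AMO, 15 of 25 tested members overlapping a protein-coding gene fell, 3 of 10 within 1 kb of one, 9 of 14 further away and 17 of 31 with no position. With IAA the counts were 15 of 26, 5 of 9, 7 of 15 and 11 of 31. Over all lncRNAs tested 52.8% fell with the U1 AMO and 46.7% with IAA. Those shares were not split by position. Across genes, Spearman's rho of gene length with the change on chromatin was -0.26 for the U1 AMO (49 members) and -0.17 for IAA (50 members), and 0.17 for the chromatin excess (51 members); the points share their libraries, so this is a description only.

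**Figure D4:**
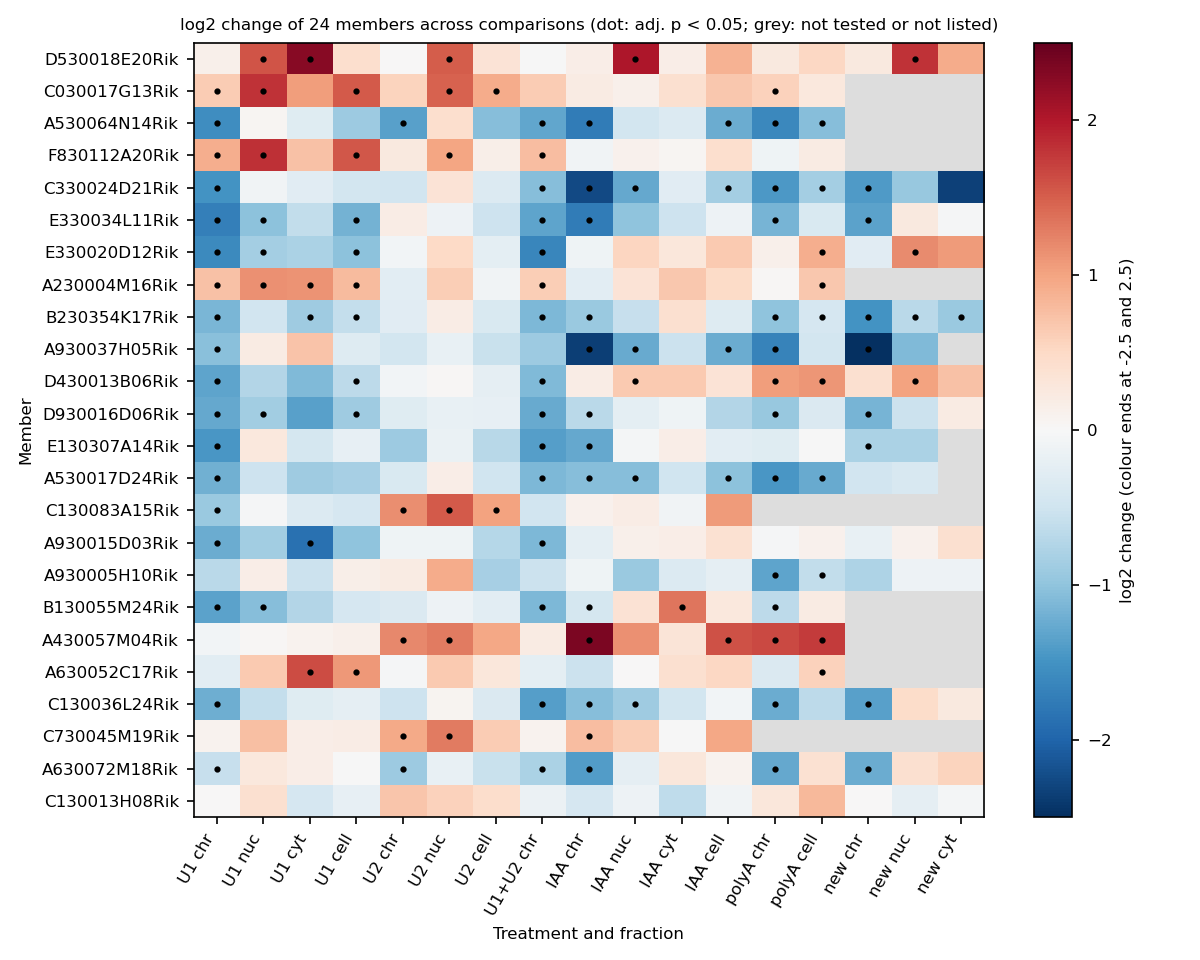
Log2 change (colour, from blue for lower to red for higher, ending at -2.5 and 2.5) of 24 members (rows) by treatment and fraction (columns); a dot marks an adjusted p under 0.05 and grey a member not tested or not listed. A430057M04Rik is pale with the U1 AMO on chromatin (-0.07) and red with IAA (2.36).

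**Figure D5:**
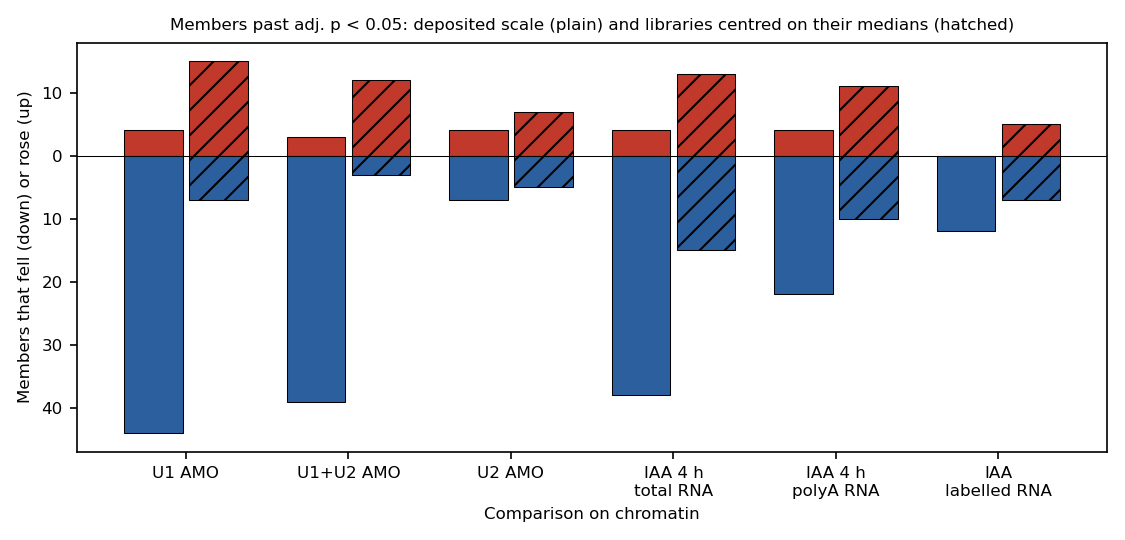
Number of members that rose (up) or fell (down) on chromatin in 6 comparisons, on the deposited scale (plain bars) and on libraries centred on their medians (hatched bars). With the U1 AMO 44 falls became 7 and 4 rises became 15.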

How the data were processed

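RNA levels were compared between treatments in 101 libraries of mouse embryonic stem cells. The 82 members and the lists used were chosen with earlier results of these data known. The authors deposited FPKM values per lncRNA for the AMO, AID total RNA and AID polyA sets, and a signal for SLAM-seq, T-to-C read counts scaled to spike-in RNA, per the file headers and the labels' protocols. The submitters' processing notes name CASAVA, TopHat, TopHat2 (2.0.11), Cufflinks and mm10, with no role given. Per the file headers the authors normalised the FPKM of chromatin, nucleoplasm and cytoplasm libraries to spike-in RNA, while whole-cell columns name no spike-in; how this was computed was not given in the sources used here. 1 value column whose name gives no fraction was left out, and peak lists on another build were not used. Rows whose identifier was shared with another row were left out.

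An lncRNA was tested where 3 libraries reached the pseudocount (0.2 FPKM for AMO, 0.1 FPKM for AID, 8 for SLAM-seq). Log2 values were fitted with limma 3.58.1 (R 4.3.3, eBayes with trend), 1 fit for each fraction, with all treatment groups, and p-values were adjusted over all lncRNAs tested, at a threshold of 0.05. The shift and the chromatin excess were contrasts across fractions. Members were named by rule: in chromatin and shift comparisons up to 5 rises and 5 falls that passed, showed no overlap between groups and were not below the median lncRNA in mean level, in others up to 3 of each, and the 6 highest members with 3 further hosts or imprinted genes always; other members are named where a count or sequence calls for it, after their values were seen. The alternatives were a doubled pseudocount, no filter, libraries centred on their medians, the replicate number as a block, each library left out, and, for SLAM-seq, edgeR 4.0.16 on recovered reads, since 99.8% to 100% of values were whole reads within 0.1. The fits were tested on simulated data. Same-numbered libraries deviated together (every correlation over 0.1) in the AMO chromatin and nucleoplasm comparisons, from 0.154 to 0.532, and not in every pair elsewhere. Numbers were therefore read as pairs there only, and only in the replicate-block alternative. The main fits held no replicate term, so their values and calls are unpaired. Sequences came from RefSeq tables (GRCm38.p6), matched by symbol.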

Additional observations from a re-analysis of the deposited data

Results flagged for a closer look

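In the 8 results listed here, the change on chromatin differed from the change of the same RNA in the cytoplasm and nucleoplasm (limma, contrast across fractions, 3 libraries a group). They are only part of the shifts called. The shift was negative for 14 of 82 members with the U1 AMO (19.7% of all lncRNAs) and 16 of 82 with IAA (19.2%). These shares are near the background. D530018E20Rik, whose chromatin libraries overlapped, was also called with the U1 AMO but is not listed. With the U1 AMO the shift was -1.43 for A530064N14Rik, -1.37 for E130307A14Rik and -1.30 for C330024D21Rik. With IAA it was -2.36 for B230206L02Rik, -1.83 for F730043M19Rik, -1.48 for C330024D21Rik, -1.45 for A930037H05Rik and -1.43 for A630072M18Rik. None of these 8 passed the test on libraries centred on their medians, and F730043M19Rik lost its call without any 1 of 13 libraries, with an adjusted p of up to 0.143. No group had the 4 libraries that a search for single outlying libraries needs.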

How the results depend on the processing

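Depth is unknown for the FPKM values and was low for SLAM-seq, where a fall to 0 reads sets no level. Doubling the pseudocount left 262 of 262 values of single members on their side of the threshold, and 1 count moved, that in SLAM-seq cytoplasm, to 1. There the count was 0 with no filter and 1 with edgeR on recovered reads. Centring libraries on their medians kept 161 of 262 member values on their side and lost 77 calls. It left 22 calls with the U1 AMO on chromatin, 15 in the U1 nucleoplasm, 15 with both AMOs on chromatin, 24 for U1 against U2, 1 for the U1 shift, 14 in the IAA nucleoplasm and 2 for the IAA shift. Under it, values of single members turned to 0.27 (U1 AMO) and 0.014 (both AMOs) for A630072M18Rik on chromatin. With the U2 AMO A530040E14Rik turned to 0.18 and E330020D12Rik to 0.17, and with both AMOs A930004J17Rik to 0.76 and D530018E20Rik to 0.78. With IAA in chromatin total RNA A530040E14Rik turned to 0.092, E330020D12Rik to 0.63, B130055M24Rik to 0.31, A230004M16Rik to 0.47, A330023F24Rik to 0.11, D930016D06Rik to 0.068 and A930004J17Rik to 0.48. In polyA RNA A530040E14Rik turned to 0.038 and A930004J17Rik to 0.43, and in SLAM-seq E330020D12Rik turned to 0.27 and A930004J17Rik to 0.51. The cause was not tested.

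With the replicate block, where numbers pair the libraries, the counts were 51 (U1), 16 (U2), 47 (both) and 44 (U1 against U2) on chromatin and 11, 14 and 14 in the nucleoplasm. Elsewhere libraries share only a number, and the block gave 1 in U2 whole cells, 0 in the IAA cytoplasm and 3 in IAA whole cells.

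Leaving out each library in turn kept 1471 of 1807 member values on their side and lost 316 calls. It gave these ranges of member calls. With the U1 AMO they were 36 to 43 on chromatin, 4 to 9 in the nucleoplasm (4 without control library 3), 3 to 10 in whole cells (3 without control library 1) and 7 to 17 for the shift (7 without control chromatin library 3 or U1 library 1). With the U2 AMO they were 3 to 9 on chromatin (3 without control library 3), 0 to 1 in the cytoplasm, 6 to 14 in the nucleoplasm (6 without control library 2) and 0 to 2 in whole cells (0 without either control library). With both AMOs they were 33 to 43 on chromatin, 4 to 7 in the cytoplasm (4 without control library 3), 6 to 11 in the nucleoplasm (6 without control library 3) and 5 to 10 in whole cells (5 without either control library). In AMO whole cells a control library left out leaves 1, which is assumed to vary like the other groups. With IAA they were 31 to 42 on chromatin, 0 to 1 in the cytoplasm, 2 to 5 in the nucleoplasm (2 without 0 h library 2), 1 to 3 in whole cells and 8 to 20 for the shift (8 without 0 h chromatin library 1 or 3 or 4 h library 3). PolyA whole cells gave 8 to 12 (8 without 0 h library 1), SLAM-seq cytoplasm 0 to 1 and SLAM-seq nucleoplasm 5 to 6. 19 values of single members near 0 changed sign when a library was left out. The ranges on chromatin were -0.15 to 0.095 for A530040E14Rik, -0.14 to 0.036 for E330020D12Rik and -0.092 to 0.18 for D530018E20Rik with the U2 AMO, and -0.12 to 0.070 for A930004J17Rik and -0.097 to 0.038 for D530018E20Rik with both AMOs. With IAA they were -0.35 to 0.21 in total RNA and -0.16 to 0.28 in polyA RNA for E330020D12Rik, -0.021 to 0.14 for A230004M16Rik and -0.13 to 0.013 for A930004J17Rik in polyA RNA, and -0.14 to 0.10 for A930004J17Rik in SLAM-seq.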
